A study of Homo sapiens with 48 samples.

Results

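NEAT1 and MALAT1, a pair of long noncoding RNAs that stay in the nucleus, were followed together with SFPQ, NONO, PSPC1, RBM14 and HNRNPK, genes of proteins that build or regulate the nuclear bodies called paraspeckles. The 7 genes were taken by symbol from a matrix of raw gene counts with 33892 rows, and all 7 were present. The rule used only the symbols, although the genes were chosen with earlier results of these data known. RNA came from 8 human cancer cell lines grown in culture, each treated for 24 h with carfilzomib or with its solvent DMSO. Carfilzomib irreversibly blocks the proteasome, which breaks down proteins that carry a ubiquitin tag. Colon cancer was represented by DLD-1 and RKO, lung cancer by H-1299 and H-23, pancreatic cancer by CAPAN-2 and PANC-1, and multiple myeloma by RPMI and H-929. Each of the 16 groups, a line with a treatment, has 3 replicates that the labels call biological, which gives 48 libraries. The drug concentration was set line by line, at the IC50 for proteasome activity, and is not in the labels. Line and concentration therefore cannot be told apart.

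Paraspeckles form on NEAT1, whose gene gives a short polyadenylated transcript and a long transcript from the same start. The long transcript is the scaffold of the body. SFPQ, NONO and PSPC1 are related RNA-binding proteins that pair with one another and coat that scaffold, and SFPQ, NONO and RBM14 are needed for the body to form. HNRNPK is known for favouring the long transcript, by opposing the polyadenylation factors NUDT21 and CPSF6 at the end of the short one. MALAT1 lies next to NEAT1 on the chromosome, but its RNA collects in nuclear speckles, the neighbouring stores of splicing factors. Induction of NEAT1 and larger paraspeckles have been described in cells given other proteasome inhibitors. The deposited counts are per gene, so the short and the long NEAT1 transcript were counted together here.

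The ends of these RNAs are shown because they are formed in different ways, and the total RNA libraries used here do not select for a poly(A) tail. In GENCODE release 29 on GRCh38, the assembly also named hg38, NEAT1 (ENSG00000245532) lies on the plus strand of chromosome 11 from 65422774 to 65445540. MALAT1 (ENSG00000251562) follows on the same strand from 65497688 to 65506516. The long NEAT1 transcript and MALAT1 are cut by RNase P and carry no added poly(A) tail. Their ends are held by a triple helix of U-rich stretches with an A-rich stretch. The capitals mark 2 runs, both read in the strand of the gene. The first, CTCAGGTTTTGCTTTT, is the longest run shared by the stretches shown ahead of the A-rich one, and it ends in a U-rich stretch. The second, AAAAAGCAAAA, is the longest run at the end of the long NEAT1 transcript that MALAT1 also holds.
Long NEAT1 transcript, chr11:65445431-65445540, plus strand: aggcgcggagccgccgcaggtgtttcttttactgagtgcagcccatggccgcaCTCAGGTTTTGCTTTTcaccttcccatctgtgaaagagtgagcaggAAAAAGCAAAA
MALAT1 transcript, chr11:65506007-65506116, plus strand: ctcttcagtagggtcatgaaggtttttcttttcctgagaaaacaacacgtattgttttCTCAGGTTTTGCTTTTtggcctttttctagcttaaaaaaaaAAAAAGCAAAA
The annotated long NEAT1 transcript of 22743 bases stops at the A-rich run, and the annotated MALAT1 transcript of 8708 bases runs 353 bases past it. Of 201525 annotated transcripts, 0.448% hold AAAAAGCAAAA anywhere. With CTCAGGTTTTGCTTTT in the 110 bases up to its end it is in 2 transcripts, the pair shown, from which both runs were taken.

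The short NEAT1 transcript ends on a polyadenylation signal instead. Its last 80 bases are shown with AATAAA, that signal, and TGTA, the motif bound by NUDT21, in capitals.
Short NEAT1 transcript, chr11:65426434-65426513, plus strand: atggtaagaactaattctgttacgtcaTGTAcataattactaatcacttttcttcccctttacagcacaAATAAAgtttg
Both motifs stand in the last 80 bases of 11.1% of 205123 annotated transcripts. A match is a description of the letters and not a measured site of binding.

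Libraries held 9.12 to 64.4 M counts (M for mega), and the lowest count of any of the 7 genes in any library was 303, for RBM14. Replicates differed from each other by more than counting noise in every group (chi-square per degree of freedom 3.48 to 17.2), so all libraries were kept. Both myeloma lines held the plasma cell genes IRF4, at 2147 CPM (counts per M counts of the library) in H-929 and 556 in RPMI without the drug, and POU2AF1, at 593 and 82.7 CPM. In the other 6 lines IRF4 was at most 0.29 and POU2AF1 at most 0.02 CPM. Other markers separated the myeloma lines less or not at all. The plasma cell marker SDC1 was at 427 CPM in RPMI and 375 in CAPAN-2. The epithelial marker EPCAM was at 119 CPM in RPMI and 7.73 in RKO, and the lung marker NAPSA at 42.7 in H-929 and 2.42 in H-23. Markers of the tissues of origin were uneven in the carcinoma lines. The epithelial keratin KRT8 ran from 54.4 CPM in RKO to 5455 in CAPAN-2, and KRT19 was at 0.00 CPM in RKO. The intestinal factor CDX2 was at 115 CPM in DLD-1 and 20.9 in RKO, while CDX1 was at 0.27 and 0.00. The lung surfactant gene SFTPC was at 0.02 CPM in H-23 and H-1299, and SFTPB at 1.63 and 0.29. Of the pancreatic markers MUC1 was at 114 CPM in CAPAN-2 and 3.26 in PANC-1, and PTF1A at 0.00 in both. Small nonpolyadenylated RNAs such as RN7SK made up 2.07% to 2.22% of counts in H-929 with DMSO and 5.88% to 7.14% with carfilzomib. In RPMI these shares were 2.16% to 2.53% and 3.83% to 4.27%. In the other 6 lines the shares of both treatments lay between 1.46% and 3.75%.

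Without the drug, the noncoding RNAs differed far more between lines than the protein genes did. Levels compared between lines and genes are CPM per kilobase of annotated exon, on scaling factors set over all 48 libraries, in the DMSO libraries (mean ± SD, n = 3). NEAT1 stood highest in PANC-1 at 79.98 ± 8.34, followed by H-929 at 58.2 ± 2.35, RKO at 44.9 ± 1.47 and CAPAN-2 at 44.6 ± 8.42. DLD-1 had 33.04 ± 1.19, RPMI 23.3 ± 2.59, H-23 16.97 ± 0.663 and H-1299 8.78 ± 1.73. Only RKO and CAPAN-2 overlapped in their 3 libraries among neighbours in that order, and the highest line was 9.11 times the lowest.

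MALAT1 spanned a wider range, from 124 ± 7.02 CPM per kilobase in H-929 and 108 ± 3.47 in RKO down to 4.73 ± 0.799 in H-23, a ratio of 26.3 between the extremes. PANC-1 had 23.3 ± 2.02, and CAPAN-2 at 9.89 ± 1.95 and RPMI at 9.71 ± 1.44 overlapped. DLD-1 had 6.83 ± 0.490, and H-1299 at 5.06 ± 0.973 overlapped with H-23. The order of the lines was therefore not that of NEAT1: RKO ranked next to the top for MALAT1 and PANC-1 led for NEAT1. Per kilobase, MALAT1 exceeded NEAT1 in H-929 and RKO only. The length used for NEAT1 was 22.767 kilobases, of which the short transcript covers only a part. The comparison per kilobase therefore depends on the unknown mix of the short and the long transcript.

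The protein genes were steadier. HNRNPK, an RNA-binding protein of the nucleus and cytoplasm, ran from 202 ± 5.41 CPM per kilobase in H-1299 to 114 ± 3.80 in H-23. NONO ran from 198 ± 2.59 in H-1299, separated from all other lines, to 81.2 ± 3.88 in CAPAN-2. SFPQ ran from 116 ± 4.05 in RPMI to 68.7 ± 2.99 in H-23. PSPC1, the scarcer relative of SFPQ and NONO, lay between 13.7 ± 1.28 in RPMI and 29.4 ± 0.830 in CAPAN-2. RBM14, a coactivator with a prion-like domain, lay between 13.6 ± 1.67 in RKO and 28.4 ± 2.98 in RPMI. The ratio of the highest to the lowest line was 1.69 for SFPQ and 1.78 for HNRNPK, 2.10 for RBM14, 2.14 for PSPC1 and 2.44 for NONO.

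NEAT1 rose after carfilzomib in 7 of the 8 lines and did not pass the test in PANC-1. The comparison asks how each line's transcripts answer to a blocked proteasome, and a gene was called at an adjusted p under 0.05 by edgeR's quasi-likelihood test on the 6 libraries of the line. A rise called in 7 or more lines was found for 1.33% of the 11622 genes that could be tested in every line. Values beside these tests are CPM on the scaling of that line's own fit.

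The largest rises were in the myeloma lines. In RPMI the DMSO libraries had 413, 487 and 494 CPM of NEAT1 and the carfilzomib libraries 2489, 2174 and 2871. Every treated library lay above every control, and the fold change was 5.40 (log2 2.43 ± 0.10 SE, adjusted p = 1.42e-10, edgeR). In H-929 the DMSO libraries had 1245, 1144 and 1230 CPM and the carfilzomib libraries 3855, 4399 and 3918. The groups did not overlap, and the fold change was 3.36 (log2 1.75 ± 0.08 SE, adjusted p = 3.88e-10, edgeR). These are the same lines in which the share of small nonpolyadenylated RNAs was higher with the drug, and the part of that shift in the NEAT1 values was not tested.

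DLD-1 came next, with 743, 757 and 822 CPM in DMSO and 1385, 1216 and 1268 in carfilzomib. The groups were well apart (log2 fold change 0.74 ± 0.05 SE, adjusted p = 1.29e-05, edgeR). CAPAN-2 had 936, 765 and 1114 CPM in DMSO and 1323, 1337 and 1445 in carfilzomib. Its control libraries scattered more than its treated ones without reaching them (log2 fold change 0.54 ± 0.10 SE, adjusted p = 0.000321, edgeR). H-23 had 439, 426 and 399 CPM in DMSO and 585, 624 and 582 in carfilzomib. The replicates of H-23 were tight (log2 fold change 0.50 ± 0.04 SE, adjusted p = 4.24e-07, edgeR).

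The calls in RKO and H-1299 were small and rested on few libraries. In RKO the values were 1203, 1135 and 1086 CPM in DMSO and 1362, 1218 and 1374 in carfilzomib. The lowest treated library lay just above the highest control (log2 fold change 0.21 ± 0.05 SE, adjusted p = 0.0259, edgeR). Leaving out either DMSO replicate 2 or 3, or carfilzomib replicate 1 or 3, ended the NEAT1 call in RKO, with adjusted p up to 0.131 (edgeR). In H-1299 the DMSO libraries had 216, 145 and 191 CPM and the carfilzomib libraries 225, 225 and 219. The treated libraries agreed closely and the controls did not (log2 fold change 0.27 ± 0.10 SE, adjusted p = 0.0338, edgeR). Leaving out DMSO replicate 2 of H-1299 lowered the log2 fold change to 0.13 with the call kept, and leaving out any carfilzomib library ended the call (adjusted p up to 0.0955, edgeR). The call was also lost with library totals as the scaling (log2 fold change 0.16, adjusted p = 0.210, edgeR), in a single fit of all libraries (0.20, adjusted p = 0.123, edgeR) and in the Wald test of DESeq2 (0.29, adjusted p = 0.110). PANC-1, the line with the most NEAT1 at the start, had 1934, 1646 and 1995 CPM in DMSO and 2035, 1731 and 2117 in carfilzomib. These ranges overlapped (log2 fold change 0.08 ± 0.07 SE, adjusted p = 0.433, edgeR).

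**Figure D1:**
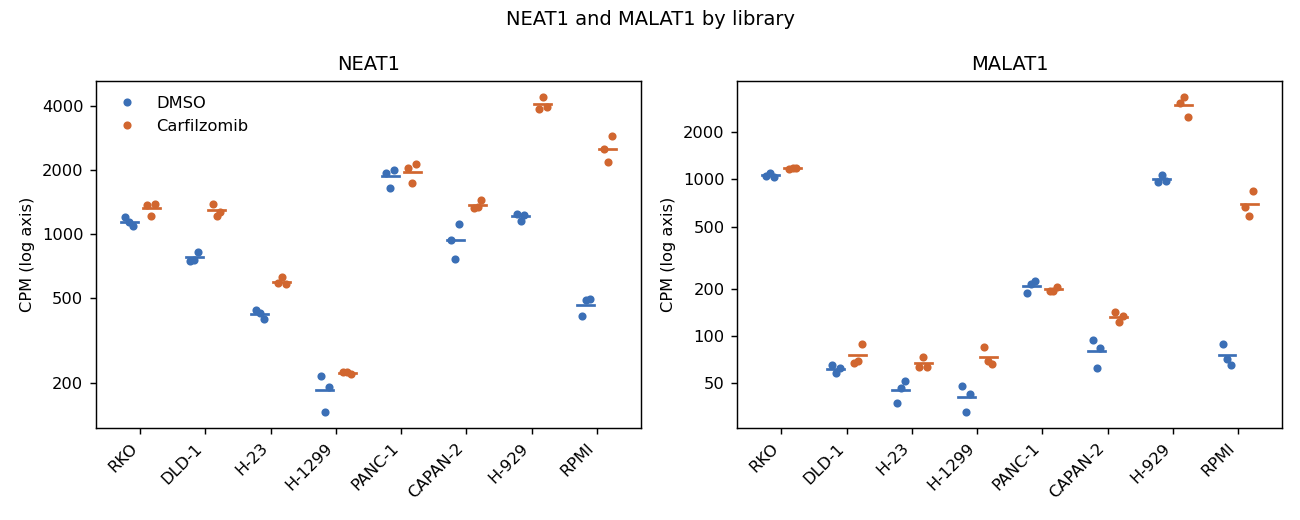
CPM of NEAT1 (left) and MALAT1 (right) in every library, on log axes, with 8 cell lines along the horizontal axis, DMSO in blue and carfilzomib in orange; points are libraries and short lines are means of 3. The treated points of RPMI and H-929 stand clear above their controls for both RNAs, and those of PANC-1 overlap with them.

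MALAT1, counted from the neighbouring gene, rose in 6 of 8 lines, a count reached or passed by 4.06% of the genes tested in every line. It passed the test in RPMI, H-929, RKO, H-23, H-1299 and CAPAN-2, and not in DLD-1 or PANC-1. In RPMI the DMSO libraries had 89.3, 71.9 and 65.2 CPM and the carfilzomib libraries 664, 581 and 842. That gap was the widest of any of the 7 genes in any line, a fold change of 9.28 (log2 3.21 ± 0.13 SE, adjusted p = 2.30e-10, edgeR). In H-929 MALAT1 went from 965, 1059 and 975 CPM to 3055, 3362 and 2502. The treated libraries spread more widely than the controls and stayed above them (fold change 2.97, log2 1.57 ± 0.10 SE, adjusted p = 1.43e-08, edgeR). The small nonpolyadenylated RNAs moved with these values too, and their part was not tested.

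Among the solid tumour lines the largest MALAT1 rise was in H-1299, where the log2 fold change of NEAT1 was 0.27. The H-1299 libraries had 48.1, 32.7 and 42.5 CPM in DMSO and 84.8, 69.0 and 66.4 in carfilzomib. The groups did not overlap (log2 fold change 0.83 ± 0.12 SE, adjusted p = 5.99e-05, edgeR). CAPAN-2 had 94.7, 63.0 and 84.5 CPM in DMSO and 142, 122 and 134 in carfilzomib. All its treated libraries were above its controls (log2 fold change 0.72 ± 0.11 SE, adjusted p = 6.99e-05, edgeR). H-23 had 37.5, 46.97 and 52.0 CPM in DMSO and 63.2, 73.9 and 63.7 in carfilzomib. Here too the groups were separate (log2 fold change 0.56 ± 0.09 SE, adjusted p = 0.000385, edgeR).

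RKO, rich in MALAT1 from the start, had 1045, 1104 and 1037 CPM in DMSO and 1171, 1181 and 1188 in carfilzomib. The groups were separate but close (log2 fold change 0.15 ± 0.04 SE, adjusted p = 0.0227, edgeR). The MALAT1 call in RKO was lost when any library but DMSO replicate 2 was left out, with adjusted p up to 0.0965 (edgeR). DLD-1 had 65.5, 57.8 and 62.8 CPM in DMSO and 67.2, 69.3 and 89.3 in carfilzomib. Its treated libraries were all above the controls without passing the test (log2 fold change 0.28 ± 0.10 SE, adjusted p = 0.0662, edgeR). The Wald test of DESeq2 called MALAT1 in DLD-1 higher at an adjusted p of 0.0107, as did edgeR with library totals (0.0351) and without a filter (0.0214). Without carfilzomib replicate 3, the highest of its libraries, the log2 fold change was 0.14 (adjusted p = 0.210, edgeR). PANC-1 had 190, 216 and 224 CPM in DMSO and 194, 194 and 207 in carfilzomib. These overlapped (log2 fold change -0.08 ± 0.05 SE, adjusted p = 0.253, edgeR), and without DMSO replicate 1 MALAT1 was called lower in PANC-1 (log2 fold change -0.16, adjusted p = 0.00842, edgeR).

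The balance between the neighbouring RNAs was read within each library, as the log2 ratio of NEAT1 to MALAT1 counts with 1 added to each, which needs no scaling between libraries. In DMSO the mean ratio of counts, back on the linear scale, was 12.5 in DLD-1, 11.7 in CAPAN-2, 9.34 in H-23, 8.85 in PANC-1, 6.19 in RPMI, 4.47 in H-1299, 1.21 in H-929 and 1.07 in RKO. After carfilzomib it was lower in 4 lines and higher in 4. RPMI went from 6.19 to 3.63 and H-1299 from 4.47 to 3.05, without overlap of the libraries. DLD-1 went the other way, from 12.5 to 17.2, also without overlap. In the other 5 lines the libraries of the treatments overlapped. Over the 8 lines the mean change in log2 ratio was -0.088 ± 0.405 (SD, n = 8), from -0.77 in RPMI to 0.47 in DLD-1 (exact two-sided sign-flip permutation test p = 0.5625, adjusted over 4 ratios 0.672). Without RPMI the mean change was 0.010.

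**Figure D2:**
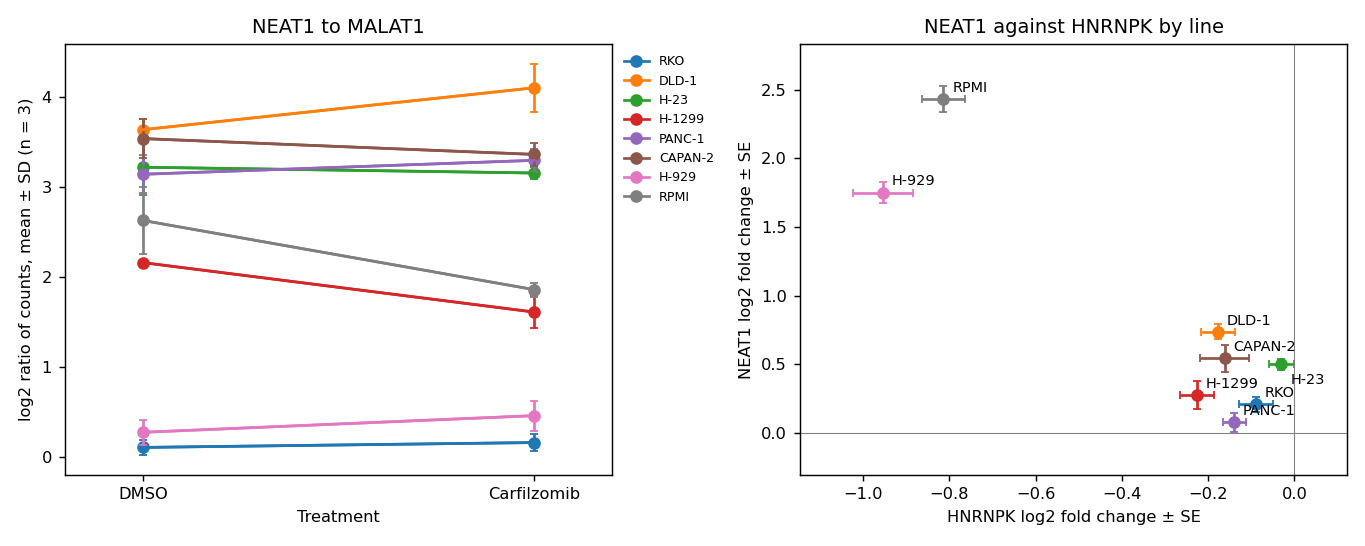
Left, the log2 ratio of NEAT1 to MALAT1 counts with DMSO and with carfilzomib, as mean ± SD of 3 libraries for each of 8 lines; right, the log2 fold change ± SE of NEAT1 (vertical) against that of HNRNPK (horizontal) by line. The lines cross on the left, with RPMI falling to 3.63 and DLD-1 climbing to 17.2 on the linear scale, and RPMI and H-929 stand apart from the other 6 lines on the right.

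HNRNPK fell in 6 of 8 lines, and 4.26% of the genes tested in all 8 lines were called lower in at least 6. It fell most in the myeloma lines. H-929 had 877, 907 and 906 CPM in DMSO and 484, 469 and 435 in carfilzomib. The treated libraries held about 0.516 of the control level (log2 fold change -0.95 ± 0.07 SE, adjusted p = 7.62e-08, edgeR). RPMI had 752, 734 and 736 CPM in DMSO and 434, 425 and 406 in carfilzomib. The groups were far apart, with 0.569 of the control level left (log2 fold change -0.81 ± 0.05 SE, adjusted p = 7.94e-09, edgeR).

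The other falls of HNRNPK were smaller. In H-1299 it went from 931, 984 and 935 CPM to 791, 816 and 830, with no overlap (log2 fold change -0.23 ± 0.04 SE, adjusted p = 0.000259, edgeR). In DLD-1 it went from 819, 822 and 878 to 737, 741 and 749 CPM (log2 fold change -0.18 ± 0.04 SE, adjusted p = 0.00914, edgeR). In PANC-1 it went from 610, 616 and 630 to 555, 566 and 563 CPM (log2 fold change -0.14 ± 0.03 SE, adjusted p = 0.00109, edgeR). PANC-1 thus had a called fall of HNRNPK beside NEAT1 and MALAT1 values that did not pass the test. In CAPAN-2 it went from 740, 758 and 681 to 632, 653 and 663 CPM (log2 fold change -0.16 ± 0.06 SE, adjusted p = 0.0258, edgeR). Leaving out any library of CAPAN-2 but DMSO replicate 3 ended the HNRNPK call there (adjusted p up to 0.138, edgeR). The log2 fold changes in RKO (-0.09 ± 0.04 SE) and H-23 (-0.03 ± 0.03 SE) did not pass the test (adjusted p = 0.195 and 0.479, edgeR).

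NONO also fell in 6 of 8 lines, against the same 4.26% of genes. H-929 had 564, 577 and 523 CPM in DMSO and 394, 369 and 367 in carfilzomib. That was its largest fall (log2 fold change -0.56 ± 0.07 SE, adjusted p = 1.53e-05, edgeR). PANC-1 had 614, 596 and 621 CPM in DMSO and 490, 512 and 491 in carfilzomib. The libraries were tight on both sides (log2 fold change -0.29 ± 0.03 SE, adjusted p = 6.93e-06, edgeR). The log2 fold changes were -0.21 ± 0.04 SE in DLD-1, -0.19 ± 0.04 in RKO, -0.14 ± 0.06 in CAPAN-2 and -0.11 ± 0.03 in H-23 (adjusted p = 0.00241, 0.00785, 0.0484 and 0.00520, edgeR). The NONO call in RKO was lost without carfilzomib replicate 3 (adjusted p = 0.0517, edgeR), and that in CAPAN-2 without any library but DMSO replicate 3 (up to 0.203). In RPMI, the line with the largest NEAT1 rise, NONO was at 561, 571 and 565 CPM in DMSO and 572, 552 and 517 in carfilzomib. These ranges overlapped (log2 fold change -0.05 ± 0.05 SE, adjusted p = 0.440, edgeR). In H-1299 NONO was at 956, 984 and 954 CPM in DMSO and 975, 982 and 983 in carfilzomib (log2 fold change 0.02 ± 0.03 SE, adjusted p = 0.599, edgeR). With library totals as the scaling, NONO in H-1299 was called lower (log2 fold change -0.09, adjusted p = 0.0329, edgeR), a scaling that put the median of all genes of that line at -0.12.

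SFPQ was the only one of the 5 protein genes called in both directions. It fell in RPMI, from 754, 745 and 775 CPM to 555, 553 and 567. The fall was far beyond the spread between libraries (log2 fold change -0.44 ± 0.05 SE, adjusted p = 2.44e-06, edgeR). In H-929 it was at 770, 777 and 791 CPM in DMSO and 747, 788 and 802 in carfilzomib. Those ranges lay on each other (log2 fold change -0.00 ± 0.07 SE, adjusted p = 0.994, edgeR), though a single fit of all libraries called SFPQ lower in H-929 (-0.16, adjusted p = 0.000655). In H-1299 SFPQ rose, from 599, 627 and 596 CPM to 724, 690 and 686. The groups did not overlap (log2 fold change 0.21 ± 0.04 SE, adjusted p = 0.000611, edgeR). It fell in H-23 and PANC-1, by log2 fold changes of -0.16 ± 0.04 SE and -0.15 ± 0.04 SE (adjusted p = 0.00493 and 0.00574, edgeR). RKO, DLD-1 and CAPAN-2 had log2 fold changes of -0.08, -0.11 and 0.05 that did not pass the test (adjusted p = 0.215, 0.0520 and 0.465, edgeR). Called lower in at least 3 of 8 lines were 31.5% of the genes tested in all 8, and 47.8% were called in both directions in different lines.

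In the fits by line a different one of these partners was called lower in each myeloma line, NONO in H-929 and SFPQ in RPMI. The single fit of all libraries called both partners lower in both, with NONO in RPMI at a log2 fold change of -0.13 (adjusted p = 0.0157, edgeR). In that fit, with scaling set over all 48 libraries, SFPQ in H-929 went from -0.00 to -0.16 and PSPC1 from 0.10 to -0.060. The part of the scaling in these calls was not tested. Within libraries, the mean ratio of SFPQ to NONO counts went from 1.41 to 2.07 in H-929 and from 1.34 to 1.02 in RPMI, in both without overlap of the treatments. Over the 8 lines the mean change in log2 SFPQ to NONO was 0.107 ± 0.264 (SD, n = 8), higher in 6 lines and lower in 2 (exact two-sided sign-flip permutation test p = 0.305, adjusted 0.672). For SFPQ to PSPC1 the mean change was 0.020 ± 0.144 and for NONO to PSPC1 it was -0.087 ± 0.259 (exact permutation p = 0.672 and 0.4375, both adjusted 0.672). With 8 lines the smallest p this test allows is 0.0078125.

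PSPC1 fell in 3 lines and RBM14 in 2, shares met by 31.5% and 49.1% of the genes tested in all 8 lines. PSPC1 went from 129, 132 and 131 CPM to 107, 107 and 101 in DLD-1, with no overlap (log2 fold change -0.32 ± 0.04 SE, adjusted p = 0.000595, edgeR). It went from 93.8, 102 and 96.3 CPM to 79.9, 82.4 and 82.7 in PANC-1 (log2 fold change -0.25 ± 0.04 SE, adjusted p = 0.000235, edgeR). In RPMI it went from 53.6, 58.0 and 62.4 CPM to 49.8, 46.6 and 50.2 (log2 fold change -0.25 ± 0.07 SE, adjusted p = 0.00511, edgeR). In the other 5 lines its log2 fold changes ran from -0.11 in H-23 to 0.10 in H-929 and did not pass the test. With only genes of at least 50 counts on average PSPC1 was called higher in H-929 (0.21, adjusted p = 0.0412, edgeR). In H-23 it was called lower with that minimum, without a filter and with library totals (-0.11, -0.13 and -0.13, adjusted p = 0.0400, 0.0214 and 0.0251, edgeR). RBM14 fell in both myeloma lines. It went from 56.9, 43 and 51.0 CPM to 36.2, 32.8 and 37.3 in H-929, again with no overlap (log2 fold change -0.51 ± 0.12 SE, adjusted p = 0.00305, edgeR). In RPMI it went from 89.4, 98.6 and 107 CPM to 84.0, 85.6 and 77.2, all below the controls (log2 fold change -0.26 ± 0.07 SE, adjusted p = 0.00434, edgeR). Its log2 fold changes elsewhere ran from -0.24 in RKO to 0.13 in CAPAN-2, none of them called.

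**Figure D3:**
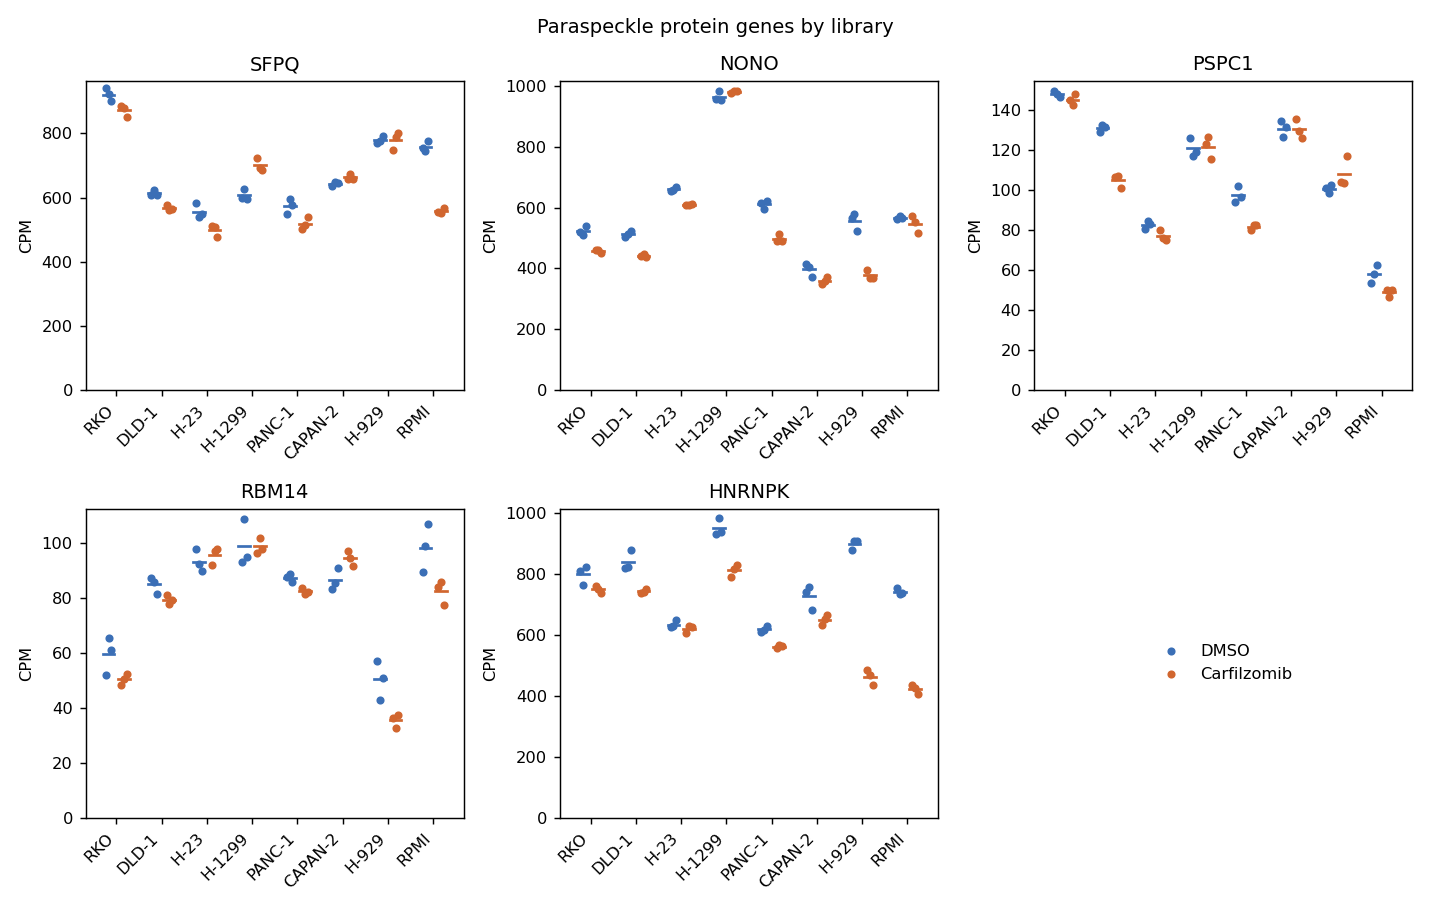
CPM of SFPQ, NONO, PSPC1, RBM14 and HNRNPK in every library, from 0, with 8 cell lines along each horizontal axis, DMSO in blue and carfilzomib in orange; points are libraries and short lines are means of 3. HNRNPK of H-929 and RPMI shows the widest gaps, and SFPQ is lower with the drug in RPMI but not in H-929.

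The number of the 7 genes called in each line is given beside the share of all genes called there, with no test of one against the other. In RKO 3 of 7 were called, where 8.90% of tested genes were. In DLD-1 it was 4 of 7 beside 23%, in H-23 4 of 7 beside 33.9%, and in H-1299 4 of 7 beside 61.2%. PANC-1 had 4 of 7 called beside 38.7%, all 4 of them lower, and CAPAN-2 had 4 of 7 beside 52.5%. H-929 had 5 of 7 beside 52.6%, and RPMI 6 of 7 beside 63.4%. The RKO count ran from 0 to 3 when single libraries were left out and was 1 in a single fit of all libraries, and that of CAPAN-2 ran from 2 to 5. The median log2 fold change over the 7 genes was between -0.25 in RPMI and 0.05 in CAPAN-2, and that over all genes tested was within 0.03 of 0 in every line.

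**Figure D4:**
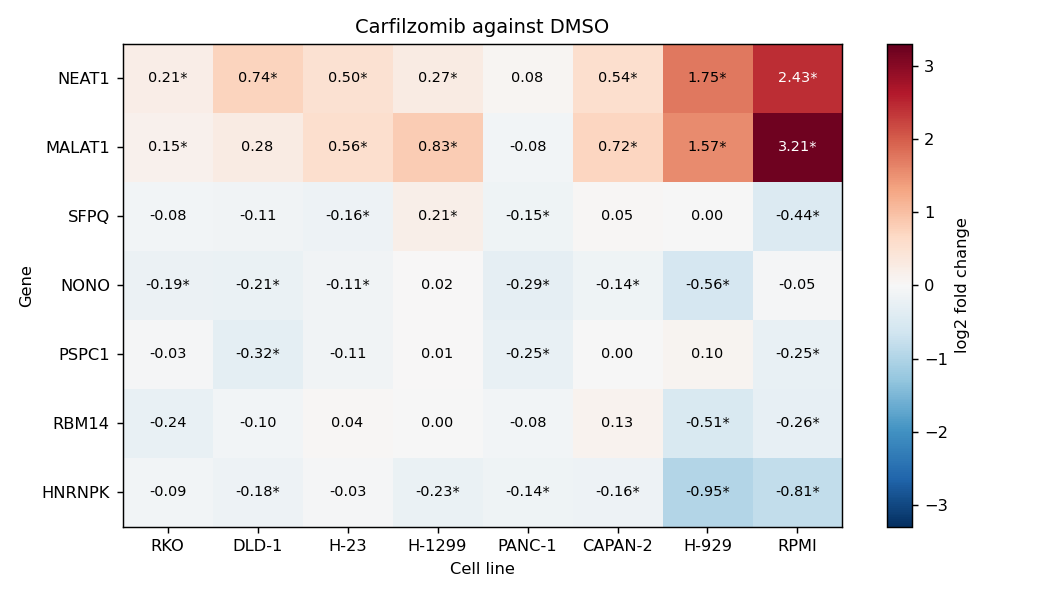
Log2 fold change of carfilzomib against DMSO for the 7 genes (rows) in the 8 lines (columns), in red where higher and blue where lower, with an asterisk at an adjusted p under 0.05 in edgeR. In RPMI the NEAT1 row reaches 2.43 and the MALAT1 row 3.21, and the HNRNPK row is below 0 in every column, down to -0.95 in H-929.

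One fit of all 48 libraries gave the mean response over the 8 lines, and there all 7 genes were called, beside 43.7% of 22309 genes. NEAT1 averaged a log2 fold change of 0.77 ± 0.04 SE and MALAT1 0.86 ± 0.05 SE, where 19.8% of genes were called higher (adjusted p = 1.56e-22 and 1.88e-20, edgeR). The averages were -0.37 ± 0.02 SE for HNRNPK, -0.23 ± 0.02 for NONO, -0.17 ± 0.03 for RBM14, -0.15 ± 0.02 for PSPC1 and -0.13 ± 0.01 for SFPQ, where 23.9% were called lower. That error is the spread between replicates and not between lines. On the scaling of each line's own fit the means over the lines were 0.82 for NEAT1, 0.90 for MALAT1 and -0.32 for HNRNPK. They were -0.19 for NONO, -0.13 for RBM14, -0.11 for PSPC1 and -0.085 for SFPQ. With the lines as the units in limma no member passed, where 0.878% of 11622 genes did. The adjusted p in limma was 0.112 for NEAT1, 0.134 for MALAT1 and 0.155 for HNRNPK. An unadjusted p under 0.05 in limma was found for 4 of 7 members, beside 2755 of the 11622 genes.

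The responses of all 7 genes differed between lines, as did those of 67.7% of genes (edgeR F test, F = 80.7 for HNRNPK, 56.9 for MALAT1, 56.1 for NEAT1, 23.3 for SFPQ, 21.6 for NONO, 9.88 for RBM14 and 6.98 for PSPC1, largest adjusted p = 3.23e-05). Without both myeloma lines the averages shrank to log2 fold changes of 0.37 for NEAT1, 0.39 for MALAT1, -0.16 for HNRNPK, -0.059 for SFPQ and -0.062 for RBM14, all still called. Without RPMI alone MALAT1 averaged 0.53 and SFPQ -0.075, and without H-929 alone RBM14 averaged -0.10. The mean of the myeloma lines minus that of the other 6 was 1.59 ± 0.09 SE for NEAT1 and 1.88 ± 0.11 SE for MALAT1, and -0.85 ± 0.04 SE for HNRNPK, in a comparison that called 44.3% of genes. It was -0.45 ± 0.06 SE for RBM14, -0.29 ± 0.03 for SFPQ and -0.25 ± 0.04 for NONO, and -0.07 ± 0.04 for PSPC1, which did not pass (adjusted p = 0.262, edgeR). On this scaling over all 48 libraries the myeloma lines averaged -0.34 for SFPQ and -0.20 for PSPC1. Their own fits gave -0.00 in H-929 and -0.44 in RPMI for SFPQ, and 0.10 and -0.25 for PSPC1. Without H-929 the difference for NONO was 0.068 (adjusted p = 0.215, edgeR). Without H-929 those for SFPQ and RBM14 were -0.44 and -0.26, and without RPMI those for MALAT1, SFPQ and NONO were 1.01, -0.12 and -0.56. The difference for PSPC1 was called without H-929 (-0.18, adjusted p = 0.0114, edgeR).

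Across the 8 lines the log2 fold changes of NEAT1 and MALAT1 went together with a Pearson r of 0.935, and those of NEAT1 and HNRNPK ran opposite with r = -0.903. These are descriptions over 8 points, of which RPMI and H-929 lie apart from the rest, and the genes of a point share its libraries and scaling. NEAT1 against NONO gave r = -0.179 and NEAT1 against PSPC1 -0.059. Over the 48 libraries, with each line's mean removed, the genes most like NEAT1 among 11373 were ALKBH6 (r = 0.958), the uridine phosphorylase gene UPP1 (0.953), CC2D1B (0.950), the long noncoding RNA LINC-PINT (0.938) and CEP126 (0.936). Those most like MALAT1 were IFIT2, a gene induced by interferon (0.963), ALKBH6 (0.952), the noncoding RNA ZFAS1 (0.947), the transcription factor TFE3 (0.943) and the chaperone CLU (0.941). HNRNPK was nearest to the nuclear pore gene NDC1 (0.978) and the helicase DDX18 (0.976), and SFPQ to the splicing factor SRSF3 (0.927) and ARID2 (0.853). NONO was nearest to EPRS1 (0.935) and PPP1R8 (0.932), RBM14 to LARP1 (0.868) and CIAPIN1 (0.844), and PSPC1 to PIMREG (0.734) and BCL2L11 (0.733). Only line means were removed, so these r values hold the drug response, and the 48 libraries form 16 groups of 3 replicates.

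Other genes of paraspeckle proteins were mostly lower on average. Of 37 listed, 35 were tested in the fit of all libraries, 22 were called lower and 3 higher, with a median log2 change of -0.17 beside 0.02 over all genes, of which 23.9% were lower and 19.8% higher. Among those not called, RUNX3 had no usable SE, and the row of HNRNPH1 shares its identifier with another row. The largest falls were those of ZC3H6, a zinc finger gene (-0.48 ± 0.05 SE), the cold-inducible RNA-binding protein RBM3 (-0.48 ± 0.02 SE) and HNRNPF, a splicing regulator (-0.42 ± 0.02 SE). Without H-1299 the average of ZC3H6 was -0.30, and without both myeloma lines that of HNRNPF was -0.23. The rises were those of FIGN (1.57 ± 0.48 SE), AKAP8L (0.50 ± 0.02 SE) and SS18L1, a subunit of a chromatin remodeller (0.32 ± 0.02 SE). FIGN was tested in only 4 lines and called in 1, H-1299, and leaving out H-929, both myeloma lines, or replicate 1 or 3 ended its call. The count of 3 higher became 6 with library totals as the scaling, and 5 with only genes of at least 50 counts on average, without H-1299, without H-929 or without both myeloma lines.

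In H-1299 more were higher than lower, with 17 of 35 paraspeckle protein genes higher and 9 lower, where 29.8% and 31.3% of all genes were. PANC-1 had 3 higher and 20 lower of 33, beside 20.5% and 18.2%, and H-929 had 4 higher and 19 lower of 34, beside 26.4% and 26.2%. NUDT21 and CPSF6, subunits of the cleavage factor that acts at the end of the short NEAT1 transcript, were looked up for that role after their values were seen. NUDT21 was called lower in 7 lines, a count reached by 1.7% of genes, from a log2 fold change of -0.15 in PANC-1 to -0.86 in H-929, and higher in H-1299 (0.38 ± 0.04 SE, adjusted p = 2.74e-06, edgeR). CPSF6 was called lower in 5 lines, a count reached by 9.94%, with the lowest log2 fold change at -0.55 in RPMI, and its log2 fold change in H-1299 was 0.05 (adjusted p = 0.314, edgeR). HNRNPUL1, an RNA-binding protein singled out in the same way, was called lower in all 8 lines, as were 0.473% of the genes tested in all 8, with log2 fold changes from -0.16 in H-1299 to -0.70 in H-929.

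**Figure D5:**
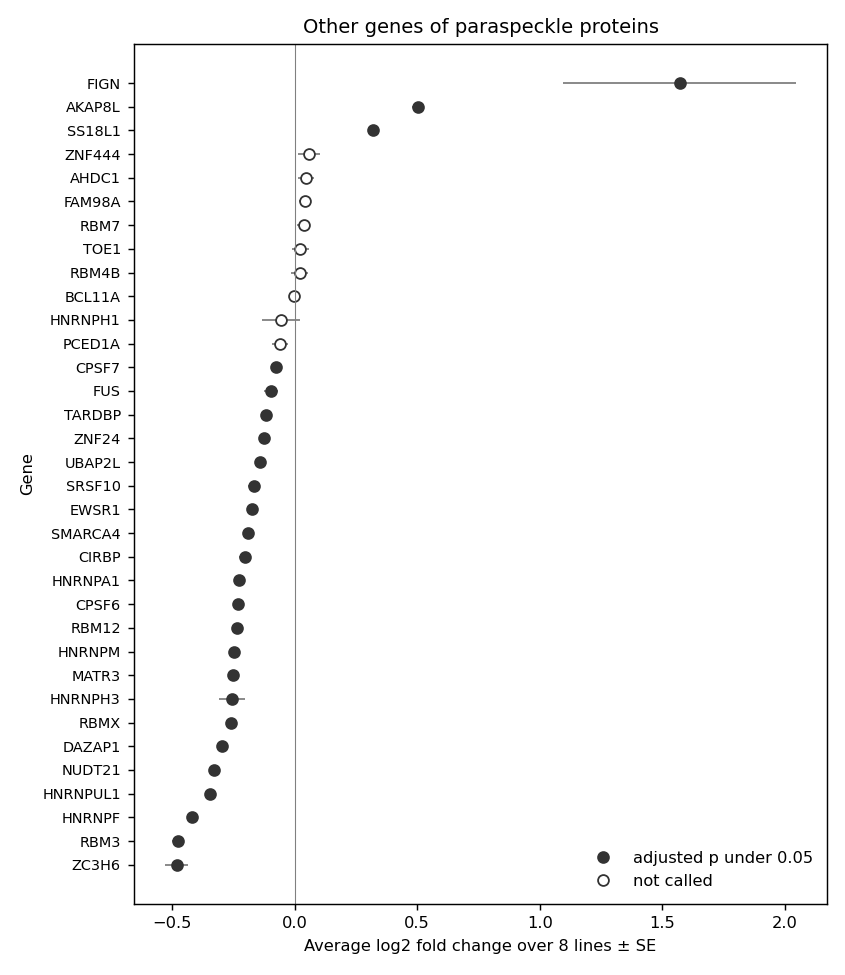
Average log2 fold change over 8 lines ± SE of the other genes of paraspeckle proteins (genes on the vertical axis), from the fit of all libraries; filled points have an adjusted p under 0.05 and open points do not, and genes without a usable SE are left out. Most filled points lie left of 0, down to -0.48 for ZC3H6 and RBM3, and FIGN lies far right at 1.57 with a wide error.

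Genes of nuclear speckles, where MALAT1 collects, had smaller averages. Of 20 splicing factors and speckle proteins, 13 were called lower on average and 1 higher, beside 23.9% and 19.8% of all genes, with a median log2 change of -0.07. U2AF2, which recognises the splice acceptor (-0.29 ± 0.02 SE), SRSF1 (-0.23 ± 0.02 SE) and SRSF3 (-0.21 ± 0.02 SE) fell most. The gene called higher was CLK1, a kinase of the SR splicing factors (0.21 ± 0.02 SE). It rose in H-929 by a log2 fold change of 1.06 and in RPMI by 0.71, and over the other 6 lines it averaged 0.02 (adjusted p = 0.551, edgeR), which left no speckle gene higher. Without H-929 alone CLK1 averaged 0.11. The count of 1 higher was 2 to 4 under the size factors of DESeq2, library totals, a minimum mean of 50 counts, or without any of RKO, DLD-1, H-23, PANC-1, CAPAN-2, RPMI or replicate 3. Without both myeloma lines the averages of U2AF2 and SRSF3 were -0.17 and -0.11, and that of SRSF1 was -0.15. By line, H-1299 had 11 of 20 higher and 3 lower, beside 29.8% and 31.3% of genes, and H-929 had 9 higher and 5 lower, beside 26.4% and 26.2%. RPMI had 6 higher and 7 lower, and in each of the other 5 lines more were lower than higher.

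Other long noncoding RNAs were mostly higher on average, with 10 of 18 called higher and 4 lower, beside 19.8% and 23.9% of all genes, and a median log2 change of 0.19. Among those not called, MEG3 had no usable SE. GAS5, host of small nucleolar RNAs (0.49 ± 0.02 SE), LINC-PINT (0.47 ± 0.02 SE) and SNHG12, another such host (0.43 ± 0.04 SE), rose most. The falls were led by DANCR (-0.49 ± 0.03 SE), OIP5-AS1 (-0.45 ± 0.02 SE) and TUG1 (-0.27 ± 0.02 SE). In H-929 14 of 18 were higher, beside 26.4% of genes, with a median of 0.91, and in RPMI 10 of 16 were higher, beside 31.3% of genes, with a median of 0.34. Without both myeloma lines 5 of the 18 were called higher and 7 lower, and SNHG12 averaged -0.03 (adjusted p = 0.541, edgeR), GAS5 0.16, LINC-PINT 0.23 and OIP5-AS1 -0.23. Without RPMI alone the averages of GAS5, SNHG12 and DANCR were 0.29, 0.27 and -0.32, and without H-929 alone that of SNHG12 was 0.19. LINC-PINT was called higher in 7 lines, every line but H-1299, a count reached by 1.33% of the genes tested in every line. TUG1 was called lower in 6 lines, a count reached by 4.26%.

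The small nonpolyadenylated RNAs that could be tested rose in both myeloma lines. Of 7 listed, only 3 were tested, RMRP, RN7SK and TERC. They averaged log2 changes of 0.29, 0.28 and 0.21, all called higher, as were 19.8% of all genes. All 3 were also called higher in H-929, with a median of 1.45, and in RPMI, with a median of 0.75. In those lines 26.4% and 31.3% of all genes were called higher. RN7SK, a regulator of transcription elongation, rose by 1.68 in H-929, near the 1.75 of NEAT1 there, and by 0.75 in RPMI, under the 2.43 of NEAT1. Without both myeloma lines none of the 3 averages was called in edgeR (0.07, 0.01 and -0.05, adjusted p = 0.109, 1.00 and 0.286). Without H-929 alone RMRP averaged 0.15, RN7SK 0.10 and TERC 0.06, the last not called (adjusted p = 0.224, edgeR), and without RPMI alone TERC averaged 0.14. The part of this RNA class in the NEAT1 and MALAT1 values of H-929 and RPMI was not tested.

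Genes beside NEAT1 and MALAT1 on chromosome 11 did not share one direction. Of 13 tested, 3 were higher and 4 lower on average, shares near the 19.8% and 23.9% of all genes, with a median log2 change of -0.04. ZNRD2 rose (0.46 ± 0.03 SE) and was called higher in 7 lines, every line but RKO. That count was reached by 1.33% of the genes tested in every line. DPF2, a chromatin reader (0.19 ± 0.03 SE), and KCNK7, a potassium channel gene (0.42 ± 0.17 SE, adjusted p = 0.0354, edgeR), were also called. KCNK7 had a mean of only 0.91 CPM. Its call was lost with no filter, and without any of DLD-1, H-23, H-1299, CAPAN-2, H-929, replicate 2 or replicate 3. FAM89B fell most (-0.39 ± 0.03 SE), and averaged -0.24 without RPMI. LTBP3 (-0.12 ± 0.03 SE) and FRMD8 (-0.11 ± 0.03 SE) followed, and neither was called without RPMI, which left 2 genes lower. Without CAPAN-2 LTBP3 was not called either (adjusted p = 0.216, edgeR), and FRMD8 averaged -0.07. In RPMI, where both noncoding RNAs rose most, 8 of the 13 neighbours were lower and 3 higher, beside 32.2% and 31.3% of genes, and in H-929 1 was lower and 6 higher, beside 26.2% and 26.4%.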

How the data were processed

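The authors deposited raw read counts per gene for 48 libraries. Per the labels' protocols these were stranded total RNA libraries from cultured cells. Per the submitters' processing notes, bcl2fastq 2.19, FastQC, Trimmomatic, HISAT2, DESeq2 and hg38 were used. The counting program, its annotation and its use of strand are not given in the sources used here, so overlapping and antisense genes are uncertain. The file also has a row for the RBM14-RBM4 read-through, which was not added to RBM14.

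Each line was fitted on its 6 libraries with edgeR 4.0.16 in R 4.3.3 (filterByExpr, TMM, quasi-likelihood F test, Benjamini-Hochberg over all genes tested, threshold 0.05). One fit of 48 libraries with 16 groups gave averages and differences between lines. Scripts were tested on simulated counts. Alternatives were DESeq2 1.42.0, other scalings and filters, limma 3.58.1 with lines as units, a replicate block, and leaving out a library, a replicate number or a line at a time. Fits without both myeloma lines were added after seeing the data. The genes, lists and tests were chosen with earlier results of these data known. Listed genes are named if among the 3 largest called rises or falls on average, and similar genes by the highest correlations (5 for each noncoding RNA, 2 for each protein gene). Shares of mitochondrial genes were not used. Coordinates, exon lengths and transcript sequences are from GENCODE release 29, which matched all 7 genes by identifier. Counts need not be independent molecules, and the precision follows the depth of 9.12 to 64.4 M counts.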

Additional observations from a re-analysis of the deposited data

Results flagged for a closer look

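For 6 of the 7 genes the response to carfilzomib differed between the mean of the myeloma lines H-929 and RPMI and the mean of the other 6 lines, by edgeR's test of that difference over 22309 genes. As log2 fold changes of the myeloma lines minus the others, the values were 1.59 for NEAT1, 1.88 for MALAT1, -0.29 for SFPQ, -0.25 for NONO, -0.45 for RBM14 and -0.85 for HNRNPK. Tests of this kind were passed by 44.3% of all genes, so the count of 6 is read beside that share. The error in this test is the spread between replicates and not between lines. Its scaling factors were set over all 48 libraries, where SFPQ averaged -0.34 in the myeloma lines. The fits by line gave SFPQ -0.00 in H-929 and -0.44 in RPMI. Without H-929 the difference for NONO was 0.068 and was not called (adjusted p = 0.215, edgeR). The small nonpolyadenylated RNAs were also higher with the drug in H-929 and RPMI, and their part in these values was not tested. The drug concentration was set line by line and is not in the labels, so tumour type and concentration cannot be told apart.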

How the results depend on the processing

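Of 34 values by line that were called, 28 kept their call and direction under every alternative run, 0 changed direction and 6 lost the call under some: NEAT1, MALAT1 and NONO in RKO, NEAT1 in H-1299, and NONO and HNRNPK in CAPAN-2. The replicate numbers showed no pairing of the libraries in correlations over genes (1 of 24 same-number correlations was over 0.1). Such correlations cannot settle whether single genes follow the numbers. The fits with the replicate number as a block are given only here. They ended the calls of NONO and HNRNPK in CAPAN-2, which left 2 genes called there. They called NEAT1 in PANC-1 (0.077, adjusted p = 0.0178, edgeR) and MALAT1 in DLD-1 (0.27, adjusted p = 0.0426, edgeR) higher, and changed no other call of the 7 genes by line. One fit of all libraries left 1 call in RKO. Without single libraries the calls ran from 0 to 3 in RKO and from 2 to 5 in CAPAN-2. With the lines as units in limma, the averages of NEAT1 and MALAT1 were 0.82 and 0.90 with adjusted p of 0.112 and 0.134. There 0 of 84 listed genes were called, beside 0.878% of all genes. The averages in edgeR called 63 listed genes, beside 43.7% of all genes. An unadjusted p under 0.05 in limma was found for 18 of 84 listed genes, beside 2755 of all 11622 genes. The mean change in log2 NEAT1 to MALAT1 was 0.010 without RPMI.

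Of the values that changed sign, 1 was called under the alternative, NONO in H-1299 with library totals, and the NONO difference between myeloma and other lines, 0.068 without H-929, lost its call. The others were called in neither setting. SFPQ in H-929 was 0.011 with DESeq2's size factors and with its Wald test, 0.019 with library totals and 0.11 with a minimum mean of 50 counts. NONO in H-1299 was -0.0865 with library totals and -0.047 in one fit of all libraries. PSPC1 was 0.017 in RKO with library totals, -0.099 and -0.059 in H-1299 with library totals and in one fit, and -0.060 in H-929 in one fit. PSPC1 in CAPAN-2 was 0.0106 with size factors, 0.0108 with the Wald test and 0.0149 in one fit. RBM14 in H-1299 was 0.013 with size factors and with the Wald test, 8.6e-05 with the minimum mean and 0.00045 with the replicate block. Without single libraries NEAT1 in PANC-1 ran from -0.0081 to 0.16, PSPC1 in H-1299 from -0.025 to 0.043, PSPC1 in CAPAN-2 from -0.033 to 0.022, and RBM14 in H-1299 from -0.043 to 0.070. The PSPC1 difference of the myeloma lines was 0.0114 with size factors, 0.069 with library totals, 0.022 with the minimum mean and 0.064 without RPMI. The change in SFPQ to PSPC1 was -0.0071 without DLD-1 and -0.0053 without H-1299. The causes were not tested.

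Leaving out 1 library also brought calls: SFPQ and RBM14 in DLD-1 without DMSO replicate 3, PSPC1 in H-23 without DMSO or carfilzomib replicate 1, RBM14 in RKO without DMSO replicate 1 and RBM14 in CAPAN-2 without DMSO replicate 3. Other settings brought calls of SFPQ in DLD-1 (DESeq2's Wald test, the minimum mean and one fit), RBM14 in RKO (no filter) and RBM14 in CAPAN-2 (the Wald test). Scaling to library totals put the median over all genes of H-1299 at a log2 change of -0.12. H-929 had the lowest depth, from 9.12 M counts, and counts limit RBM14 most.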
